A study of Oreochromis niloticus with 12 samples.

Results

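Cholesterol is built from acetyl-CoA through mevalonate and squalene, and its enzymes are switched on together by the sterol regulatory element binding proteins (SREBPs). In mammals these factors are held in the membrane of the endoplasmic reticulum by SCAP and the INSIG proteins, are carried to the Golgi when sterols are scarce, and are cut there so that their DNA-binding part can enter the nucleus. The mammalian brain makes its own cholesterol, and much of it lies in myelin, the lipid sheath that oligodendrocytes wrap around axons. Described here are 9 transcripts of this pathway among the 27115 genes of the brain table of Nile tilapia (Oreochromis niloticus). They comprise 7 enzymes (acly, acat2, hmgcra, sqle, cyp51, msmo1 and nsdhl) and the factors srebf1 and srebf2. The files give a LOC identifier in place of a symbol for some genes, LOC100697646 for hmgcra and LOC100702293 for cyp51, whose symbols come from RefSeq.

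The genes were chosen by name with their brain values known. The enzymes are ones with higher normalised read counts in dominant than in subordinate brains, and srebf1 and srebf2 encode the factors that control them. Status differences of these 9 genes are therefore a description, and no test of them is given. No other row of the table had one of the 9 symbols, and 9 of 9 passed the minimum mean of 10 normalised reads that left 21743 genes in the fit.

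Brains and pituitaries came from mature males of the Lake Manzala strain, kept as pairs of males with several females and sampled after 14 days of observation, with 3 libraries for each status and tissue (12 in all). Dominant males reproduced and subordinate males did not. Whole-brain RNA was sequenced, so fewer cells of a type and less RNA per cell cannot be told apart. The 6 brain libraries held 23733115 to 26867631 recovered reads. Neuronal marker transcripts were abundant in each brain library, with a summed level of 242831 to 258228 normalised reads over 16 genes. The labels do not say whether numbered samples came from separate tanks, so any p-value measures only the spread between these samples. Values are normalised read counts, with mean ± SD over n = 3, and a difference is the dominant less the subordinate mean of log2(value + 1), with its standard error (SE).

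The pathway starts with the supply of acetyl-CoA. ATP citrate lyase, encoded by acly, splits citrate in the cytosol into acetyl-CoA and oxaloacetate. In dominant brains 1, 2 and 3 it stood at 2536, 1918 and 1956 normalised reads, compared with 1392, 992 and 1048 in subordinate brains 1, 2 and 3. The lowest dominant value was 1.38 times the highest subordinate one, and library 1 was the highest of both groups. The log2 difference was 0.90 ± 0.16 (SE), the widest standard error but one among the 7 enzymes. It was 0.48 ± 0.26 (SE) in a fit with the level of posterior hox genes, which mark hindbrain and spinal cord, as a covariate. Subordinate brain 1 had the highest level of both acly and these hox genes in its group. The hox level is largely confounded with status, and its part in the acly difference was not tested.

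Acetyl-CoA acetyltransferase 2, encoded by acat2, joins pairs of acetyl-CoA molecules to acetoacetyl-CoA. Its counts were 1243, 1169 and 1143 for dominant and 929.8, 1013 and 954 for subordinate brains. These groups also did not overlap, but the lowest dominant value was only 1.13 times the highest subordinate value. With a log2 difference of 0.30 ± 0.07 (SE), acat2 had the smallest difference of the 7 enzymes.

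HMG-CoA reductase makes mevalonate and is the rate-limiting enzyme of the pathway. Its transcript hmgcra stood at 578, 532 and 529.5 normalised reads in dominant brains and at 278, 342 and 302 in subordinate brains. The dominant values lay close together, with the highest 1.09 times the lowest, and each was at least 1.55 times the highest subordinate value. The ratio of the group means was 1.78, and the log2 difference was 0.83 ± 0.10 (SE).

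Squalene epoxidase, encoded by sqle, adds oxygen to squalene and is a further control point of the pathway. Counts of sqle were 201.1, 199 and 221 in dominant brains, against 95.6, 133 and 117 in the subordinate group. Here dominant brain 3, not 1, was the highest, and the subordinate brains spread by a factor of 1.39. The log2 difference was 0.85 ± 0.15 (SE).

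The next members take lanosterol to later sterols by removing methyl groups. cyp51, the lanosterol 14-alpha-demethylase, stood at 737, 668 and 701 normalised reads in dominant brains and at 479, 435 and 434 in subordinate brains. It had tight groups on both sides, with SDs of 34.6 and 25.8, and a log2 difference of 0.64 ± 0.08 (SE). msmo1 encodes the methylsterol monooxygenase that acts on the methyl groups at carbon 4, and stood at 645, 491 and 529 in dominant and 333, 300.2 and 296 in subordinate brains. Dominant brain 1 was 1.31 times the lowest dominant value for msmo1, and the log2 difference was 0.83 ± 0.12 (SE). nsdhl encodes the decarboxylating sterol dehydrogenase that works with msmo1. It stood at 129, 94.1 and 97.3 in dominant brains and at 63.7, 65.4 and 63.4 in subordinate brains. The subordinate values of nsdhl differed among themselves by a factor of only 1.03, whereas dominant brain 1 stood 1.37 times above the lowest dominant value. Its log2 difference was 0.71 ± 0.17 (SE).

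The transcripts of the factors themselves differed little. srebf2, whose product in mammals mainly drives sterol synthesis, stood at 2606, 2788 and 2910.4 normalised reads in dominant brains and at 2819, 2912 and 2794 in subordinate brains. The groups overlapped, with a log2 difference of -0.04 ± 0.06 (SE). srebf1, whose product in mammals mainly drives fatty acid synthesis, stood at 2104, 2279.5 and 2145 in dominant and at 2375, 2099.6 and 1966 in subordinate brains. These groups overlapped as well, with a log2 difference of 0.02 ± 0.08 (SE). Dominant brain 1, which was the highest dominant library for 6 of the 7 enzymes, was the lowest dominant library for both factors.

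**Figure D1:**
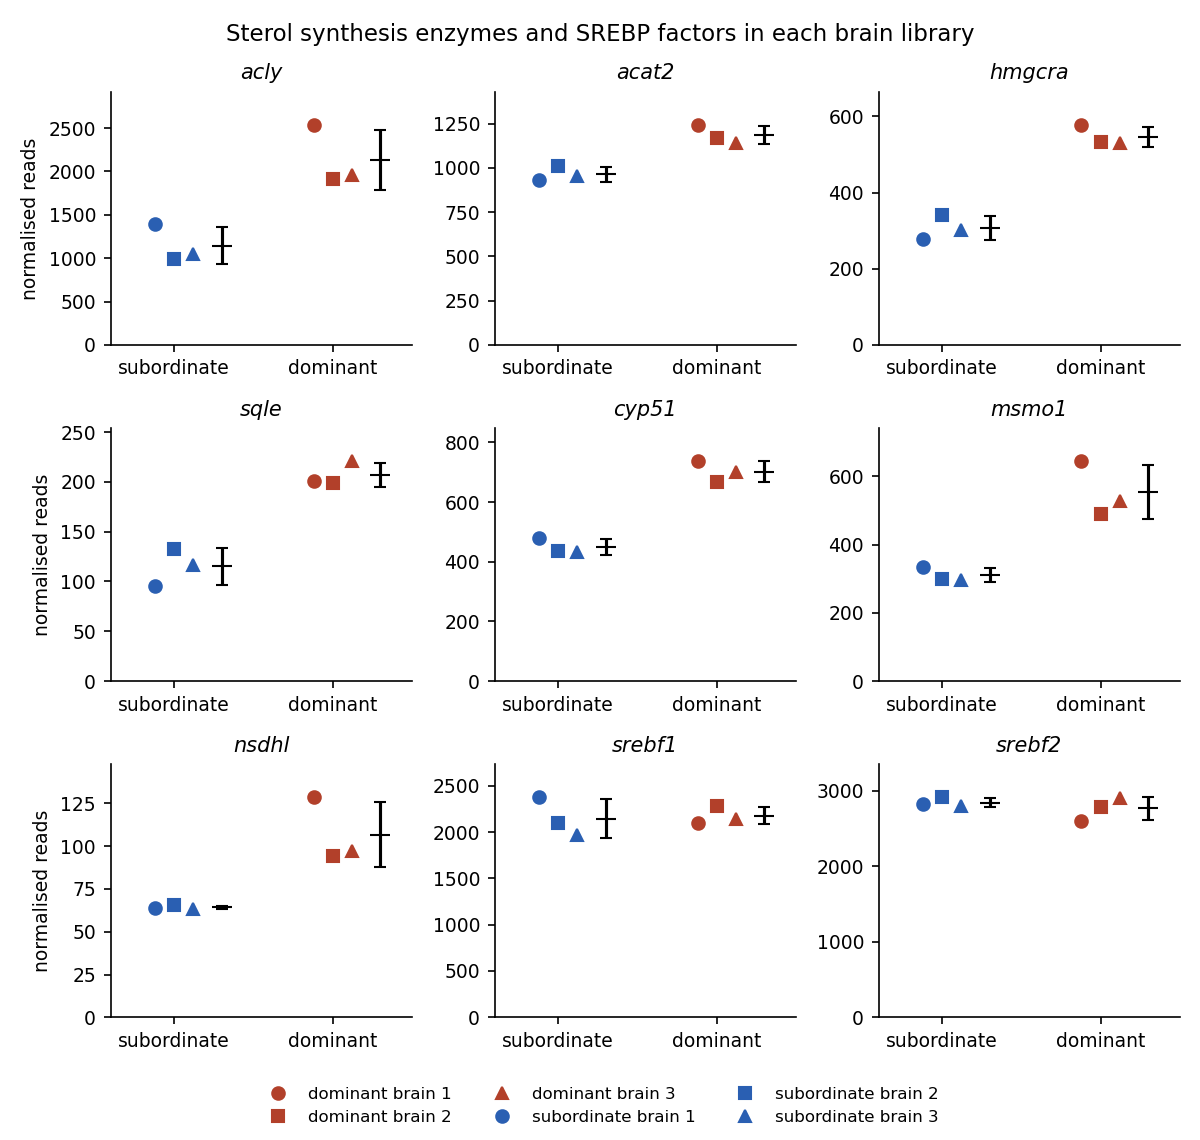
Normalised read counts (vertical axis, from 0) of the 9 genes in each brain library, with circles, squares and triangles for libraries 1, 2 and 3 of each status and the mean ± SD of 3 libraries beside them. The 7 enzyme panels show separate groups, while the srebf1 and srebf2 panels show overlapping ones.

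Over the 7 enzymes the median log2 difference was 0.83 and the range was 0.30 to 0.90. In 7 of 7 each dominant value exceeded each subordinate value. Over all tested genes 5.46% had non-overlapping groups with dominant brains higher. Since the enzymes were chosen by this contrast, nothing is read from that count. The authors' deposited table gives log2 fold changes of 0.30 to 0.90 for these enzymes, and of 0.02 and -0.04 for srebf1 and srebf2. With each of the 6 libraries left out in turn, the median over the enzymes ran from 0.72 (without dominant brain 1) to 0.85, and the lowest single enzyme value was 0.26, for acat2.

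Other genes of the pathway were listed by their known role and not by their values. The lists were nevertheless written with earlier results of these data known, so they give no independent support. They held 88 tested genes outside the 9 members in 7 lists. None of the 88 passed limma's test over all genes (adjusted p under 0.05), which called 0.0276% of all genes. At an unadjusted p under 0.05 by limma there were 9 of the 88 on the higher side, where all genes gave 3.1%, and 1 on the lower side, where all genes gave 2.07%. The same 88 held 0 genes called by edgeR, whose own filter left out hsd17b7 and which called 0.0275% of its genes. DESeq2 called 1, npc2, against 0.313% of its genes.

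Sterol synthesis proper held 17 of these other genes, and 16 of them (94.1%) were higher in dominant brains, compared with 48.8% of all tested genes. Groups did not overlap, with dominant brains higher, for 6 of the 17 (35.3%), beside 5.46% of all genes. The median log2 difference of the 17 was 0.21, beside 0.83 for the 7 enzymes and -0.004 for all genes. No test of the list as a whole was made.

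In the upper stretch, from acetyl-CoA to squalene, the 8 other genes had a median log2 difference of 0.18. hmgcs1 (LOC100712075), which makes HMG-CoA for the reductase, stood at 736, 759 and 726 normalised reads in dominant and 582, 687 and 643 in subordinate brains. fdft1, the squalene synthase, stood at 643, 519 and 572 against 483, 466 and 446. The groups of both genes did not overlap, with log2 differences of 0.22 ± 0.08 and 0.31 ± 0.10 (SE). The kinase pmvk (518 ± 3.45 against 473 ± 18.8) and the isomerase idi1 (450 ± 21.0 against 399 ± 14.1) had non-overlapping groups at differences of 0.13 and 0.18. Overlapping groups were seen for mvd, the mevalonate diphosphate decarboxylase (269 ± 39.5 against 236 ± 13.3), and fdps, the farnesyl diphosphate synthase (493 ± 65.6 against 424 ± 31.6). So it was for the kinase mvk, the 1 gene of the 17 with a lower dominant mean (130.2 ± 15.9 against 137 ± 7.86). It was also the case for ggps1, which leads away from sterols to geranylgeranyl groups (198 ± 11.5 against 194 ± 14.1). The chosen enzymes hmgcra and acat2 thus stood beside neighbours whose differences ran from -0.08 to 0.31.

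The lower stretch, from squalene to cholesterol, had 9 other tested genes with a median log2 difference of 0.27, and 9 of 9 had a higher dominant mean. With the hox covariate the median was 0.06 and 5 of 9 were above 0. sc5d, the sterol C5-desaturase, stood at 112, 80.0 and 94.2 normalised reads in dominant brains against 50.1, 80.0 and 39.2 in subordinate ones. Subordinate brain 2 reached the lowest dominant value of sc5d, and the log2 difference was 0.80 ± 0.29 (SE). ebp, the isomerase of the ring double bond, had non-overlapping groups (46.3 ± 8.53 against 32.8 ± 6.04). The reductases dhcr7 (347 ± 38.0 against 272 ± 63.4) and tm7sf2 (214 ± 24.5 against 178 ± 33.7) overlapped between groups. Their log2 differences of 0.37 and 0.27 were -0.10 ± 0.28 and -0.22 ± 0.24 (SE) with the hox covariate. That of ebp went from 0.49 to 0.08 ± 0.45 (SE). The remaining differences were small beside their errors, at 0.11 ± 0.15 for lbr, a nuclear envelope protein with sterol reductase activity, 0.15 ± 0.22 for erg28, a scaffold of the demethylation complex, and 0.08 ± 0.19 for faxdc2 (SE). hsd17b7 (LOC100698819), which acts with msmo1 and nsdhl, was scarce at 11.5 ± 6.37 against 9.34 ± 3.91. With the hox covariate the differences of sc5d and faxdc2 rose, to 1.29 ± 0.53 and 0.43 ± 0.36 (SE). Those of lbr, erg28 and hsd17b7 fell, to -0.29 ± 0.25, 0.06 ± 0.43 and -0.96 ± 0.86 (SE). The rows named ebpl and lss (LOC102082489) had means under 10 normalised reads and were not tested. Whether a row without a symbol holds the main locus of lss, the lanosterol synthase, cannot be told here.

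**Figure D2:**
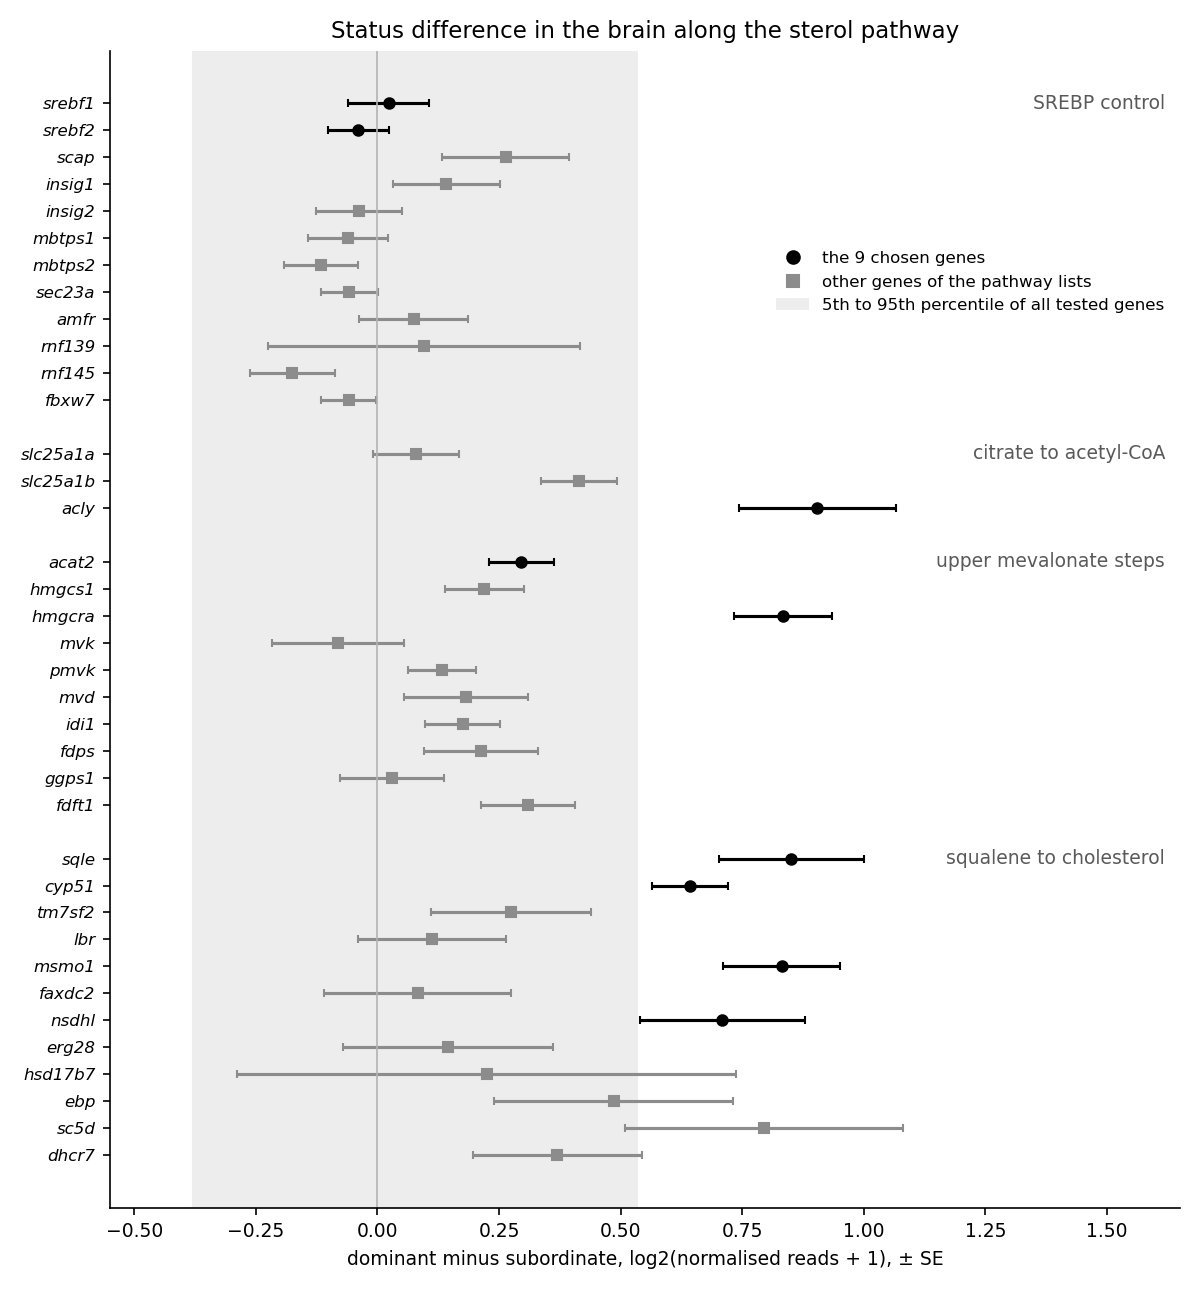
Dominant minus subordinate difference on the log2(normalised reads + 1) scale ± SE (horizontal axis) for SREBP control genes, the supply of acetyl-CoA from citrate and sterol synthesis genes in pathway order, with the 9 chosen genes as black circles, other listed genes as grey squares and the 5th to 95th percentile of all tested genes shaded. Of the chosen enzymes, acat2 lies inside the shaded band and the other 6 to its right, while srebf1, srebf2 and the other control genes drawn lie inside it.

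The genes that control SREBP had a median log2 difference of -0.04 over 13 genes, srebf1 and srebf2 included, with 6 higher and 7 lower. None of the 11 other genes had an unadjusted p under 0.05 by limma, none passed by limma, edgeR or DESeq2, and in 1 the groups did not overlap. That gene was mbtps2, the site-2 protease that completes the release of SREBP, at 371 ± 2.53 in dominant and 403 ± 18.8 in subordinate brains. Over all genes 5.33% had non-overlapping groups with dominant brains lower. scap, the escort of SREBP, stood at 1454, 1646 and 1538 in dominant and 1129, 1195 and 1574 in subordinate brains, so that subordinate brain 3 lay among the dominant ones. insig1, which in mammals is itself a target of SREBP, stood at 475 ± 55.9 against 429 ± 31.2, and insig2 at 431 ± 20.1 against 443 ± 34.7. The site-1 protease mbtps1 stood at 1836 ± 135 against 1914 ± 134, and sec23a, a coat protein of the vesicles that leave the endoplasmic reticulum, at 2069 ± 81.5 against 2153 ± 58.4. The ubiquitin ligase transcripts were amfr (3303 ± 316 against 3142 ± 376), rnf145 (1596 ± 42.6 against 1808 ± 189) and rnf139 (744 ± 342 against 668 ± 179). In mammals these ligases act on HMG-CoA reductase or on the SREBP escort system. fbxw7, which marks nuclear SREBP for destruction, stood at 2279 ± 49.8 against 2376 ± 82.2.

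Sterol uptake and transport genes split. Of 12 tested, 6 were higher and 6 lower, with a median log2 difference of 0.03. Non-overlapping groups with dominant brains higher were seen for 3 (25%), beside 5.46% of all genes. npc2, a carrier of cholesterol out of lysosomes, stood at 522, 515 and 589 normalised reads in dominant brains and at 385, 389.6 and 370.2 in subordinate brains. Its difference of 0.50 ± 0.08 (SE) was called by DESeq2 (adjusted p = 0.0148) and was not called by limma (adjusted p = 0.510) or edgeR (adjusted p = 0.489). tmem97, which binds NPC1, stood at 104, 140.2 and 99.4 in dominant and 81.1, 62.3 and 54.3 in subordinate brains. ldlr, a receptor for low density lipoprotein, stood at 62.2, 44.2 and 42.9 against 31.9, 30.1 and 33.2. Their log2 differences were 0.79 ± 0.22 and 0.61 ± 0.22 (SE). With the hox covariate that of tmem97 was 0.20 ± 0.34 and that of ldlr 0.58 ± 0.45 (SE).

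Acetyl-CoA and fatty acid synthesis had 21 tested genes besides acly, 14 higher and 7 lower, with a median log2 difference of 0.11. Non-overlapping groups with dominant brains higher were seen for 1 of the 21 (4.76%), no more than the 5.46% of all genes. That gene was slc25a1b (LOC100710339), a mitochondrial citrate carrier that supplies the substrate of acly. It stood at 743, 703 and 656 normalised reads in dominant and 508, 551 and 516 in subordinate brains, a difference of 0.42 ± 0.08 (SE, limma adjusted p = 0.527). The second carrier locus, slc25a1a, had a difference of 0.08 ± 0.09. Sterol efflux and turnover genes (12 tested, median 0.04) and other isoprenoid branches (15 tested, median -0.03) had 0 genes with non-overlapping groups. Of the efflux and turnover genes 10 (83.3%) were higher in dominant brains, and of the isoprenoid genes 6 (40%), beside 48.8% of all tested genes.

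**Figure D3:**
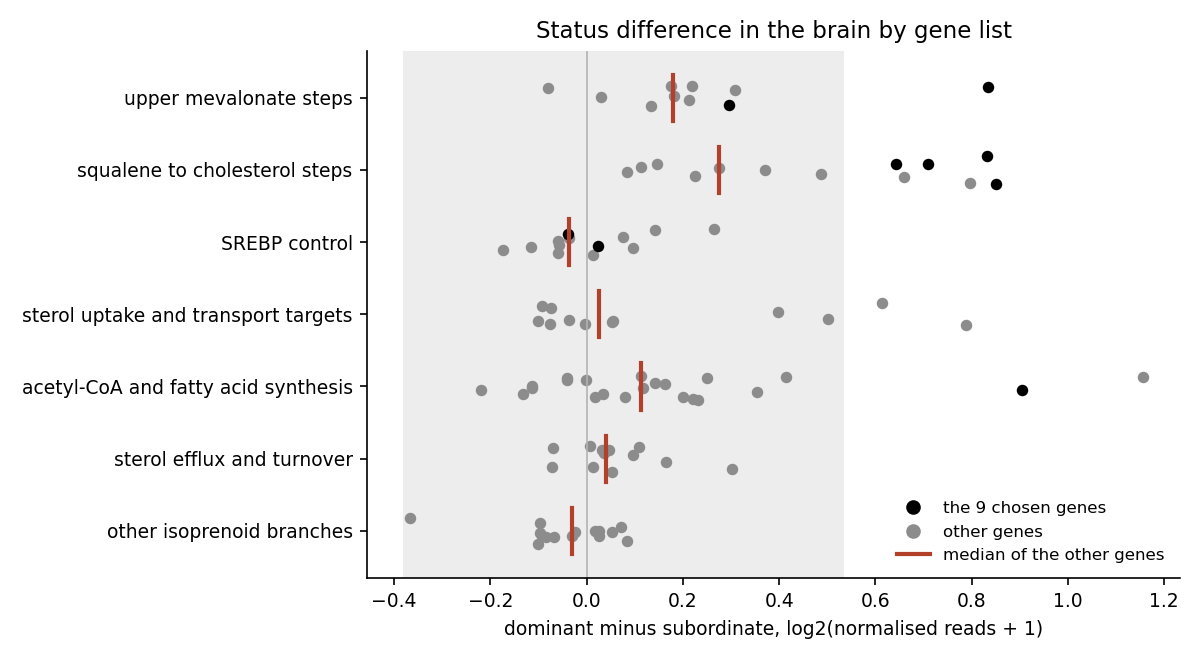
Dominant minus subordinate difference on the log2(normalised reads + 1) scale (horizontal axis) for each tested gene of the 7 pathway lists, with chosen genes in black, others in grey, the median of the others as a red bar and the 5th to 95th percentile of all tested genes shaded; vertical scatter has no meaning. The red bars of both sterol synthesis lists lie at 0.18 and 0.27, and the bar of SREBP control at -0.04.

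The members also varied within each status. They were chosen with their brain values known, so these counts are not independent of the choice and are a description. Dominant brain 1 was the highest dominant library for 6 of the 7 enzymes. Over the 23 tested sterol synthesis genes, which include the chosen enzymes other than acly, it was the highest for 15 (65.2%), beside 35.8% of all genes. Dominant brain 2 was the lowest dominant library for 13 of the 23 (56.5%), beside 27.1% of all genes. Among subordinate brains, brain 3 was the lowest for 13 of the 23 (56.5%), beside 32.5% of all genes. It was the lowest for 3 of the 7 enzymes, and for 16 of 21 listed myelin and oligodendrocyte genes (76.2%). The enzymes differed in their order within the subordinate group. Subordinate brain 1 was the lowest for acat2, hmgcra and sqle and the highest for acly, cyp51 and msmo1.

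The mean profile of the 7 enzymes over the 6 brain libraries was compared with every tested gene by the root mean square difference between centred log2 values. By construction genes near this profile differ with status, so the ranking is a description over 6 libraries. Each of the 7 enzymes is also part of the mean profile, which favours its own rank. Of the members, cyp51, nsdhl, msmo1 and hmgcra ranked 3, 4, 5 and 6 of 21743, sqle 55 and acly 84. acat2, with its smaller difference, ranked 207, and srebf1 and srebf2 ranked 6346 and 9460. Also near the profile were ldlr at rank 16, npc2 at 27 and slc25a1b at 35. Outside the pathway lists the nearest named genes were vamp1a (LOC100706230), of synaptic vesicles, at rank 14, tnfsf11 (LOC100690570), a cytokine, at 21, and tgfbr3, a co-receptor of transforming growth factor beta, at 23. They were followed by dnaaf3, of cilia, crim1 (LOC100704430), ttll6, a tubulin ligase, rfc4, of DNA replication, and plek2, at ranks 24, 25, 26, 28 and 29.

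Marker transcripts of other cell types and regions also differed in level between the brain libraries. Posterior hox genes (paralog groups 5 to 13, expressed in hindbrain and spinal cord) were higher in dominant brains in 11 of 11 tested genes, with a median log2 difference of 2.91. The other 4 of 15 hox rows averaged under 10 normalised reads. That filter keeps low rows that are high in 1 group, which favours the 11 of 11. Groups did not overlap for 8 of the 11 (72.7%), beside 5.46% of all genes. DESeq2 called 3 of them, beside 0.313% of its genes, and limma and edgeR called 0. The summed level of the 11 genes was 1058 to 1851 normalised reads in dominant brains against 806, 68.6 and 153 for subordinate brains 1, 2 and 3. Of the 15 hox rows, 8 were at 0 in subordinate brain 2 and 5 in subordinate brain 3. Myelin and oligodendrocyte genes were higher in 17 of 21 (81.0%), beside 48.8% of all tested genes. Their median was 0.28, with a summed level of 175626 to 194325 in dominant brains. In subordinate brains that sum was 207150, 159895 and 116888, so the groups overlapped in the sum, and none of the 21 genes was at 0. Gene by gene, 5 of the 21 (23.8%) had non-overlapping groups with dominant brains higher, beside 5.46% of all genes. Limma, edgeR and DESeq2 called 0 of the 21. On the higher side 5 (23.8%) had an unadjusted p under 0.05 by limma, beside 3.1% of all genes. With the hox covariate the median was -0.03 with 9 of 21 above 0. The part of these shifts in the enzyme differences was not tested.

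Subordinate brain 1 had the highest summed myelin level of the 6 brains. By median log2 level relative to the subordinate mean, its myelin genes were at 0.22, beside 0.25 to 0.28 in dominant brains. Among subordinate brains its hox level was nearest to those of the dominant brains. The summed level of the 7 enzymes was 3572, 3281 and 3213 in subordinate brains 1, 2 and 3, with acly at 1392, 992 and 1048. By median the enzymes were at -0.01, 0.03 and -0.02. They were chosen as lower in subordinate brains, so nothing is read from the place of subordinate brain 1 here. Subordinate brain 1 was the highest subordinate library for 3 of the 7 and the lowest for 3. In the dominant brains the enzyme sum was 6068, 5072 and 5176. With the mean log2 level of the posterior hox genes as a covariate in the same fit, the median difference over the enzymes was 0.73, and 7 of 7 were above 0. That level was 5.07 to 6.19 in dominant and 1.35 to 4.22 in subordinate brains, so the covariate and status are largely confounded. Standard errors were wider for each enzyme, at 0.24 for msmo1 beside 0.12 without the covariate. As the enzymes were chosen by this contrast, nothing is read from the 7 of 7. The values ran from 0.39 for acat2 to 1.32 for sqle, with acly at 0.48 and hmgcra at 1.09, and srebf1 was at -0.21. Over the 17 other sterol synthesis genes the median was then 0.14, with 12 above 0.

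For radial glia and astrocytes 9 of 12 genes (75%) were higher (median log2 difference 0.21), beside 48.8% of all tested genes. Their summed level was 187207 to 217971 in dominant and 159518 to 191089 in subordinate brains. Non-overlapping groups with dominant brains higher were seen for 3 of the 12 (25%), beside 5.46% of all genes. With the hox covariate the glial median was 0.25, with 10 of 12 above 0. Neuronal genes were higher in 10 of 16 (62.5%, median 0.03) and lower in 6. With the hox covariate the neuronal median was -0.04, with 4 of 16 above 0. Groups did not overlap for 2 of the 16 with dominant brains higher (12.5%, beside 5.46% of all genes). They did not overlap for 1 with dominant brains lower (6.25%, beside 5.33% of all genes). The neurofilament genes nefl and nefla, singled out after their values were seen, had non-overlapping groups with log2 differences of 2.14 ± 0.67 and 1.24 ± 0.43 (SE), which were -0.13 and -0.08 with the hox covariate. In the other direction, syt1 had non-overlapping groups with dominant brains lower. Its log2 difference was -0.19 ± 0.07 (SE), and -0.05 with the hox covariate. Genes with a higher dominant mean were, among microglial and macrophage markers, 5 of 8 (median 0.16) and, among endothelial markers, 5 of 11 (median -0.03). Summed levels were 15655 to 18191 against 10876 to 19468 for microglia, and 8565 to 9638 against 8999 to 9914 for endothelium. None of the markers in these 4 lists was at 0 in any brain library.

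**Figure D4:**
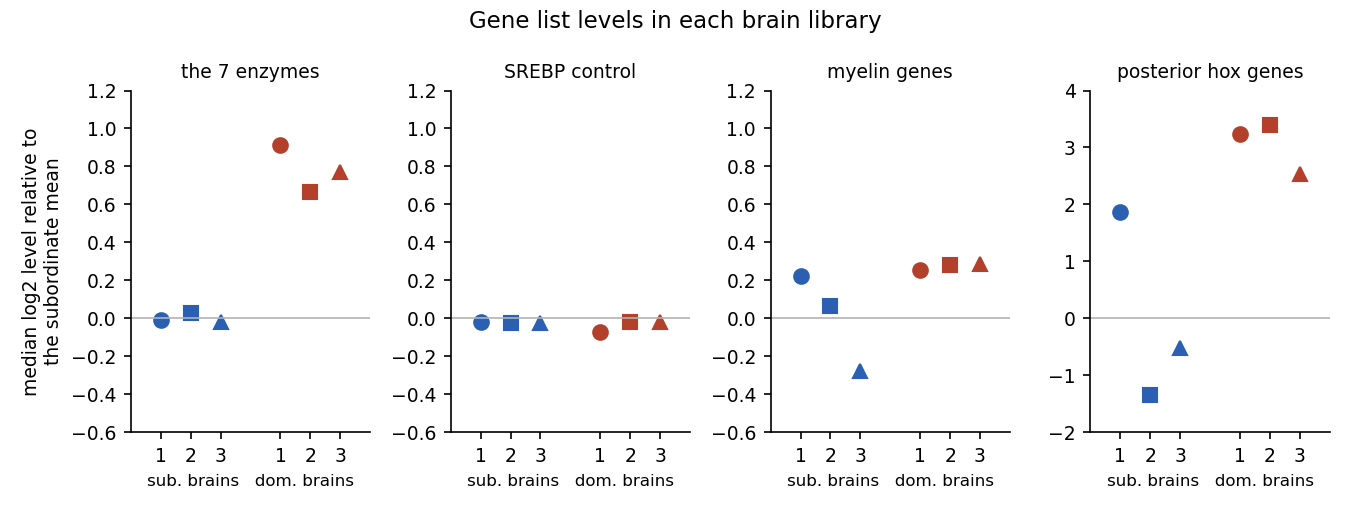
Median log2(normalised reads + 1) level relative to the subordinate mean (vertical axis, with a wider scale for hox genes) of 4 gene lists in subordinate (blue) and dominant (red) brain libraries 1 to 3. Subordinate brain 1 lies at -0.01 for the enzymes and at 0.22 for myelin genes. The enzymes were chosen by this contrast, so nothing is read from its place among them.

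In the pituitary the question was whether the same pathway differed in the second tissue. The deposited pituitary table holds 714 genes, each with a p-value of at most 0.0499 in the authors' deposited table, so it is a selection by outcome. It held 0 of the 9 members, whose pituitary levels are therefore not analysed here, and 4 genes of the pathway lists. hsd17b7, of the steps between lanosterol and cholesterol, stood at 186, 171 and 205 normalised reads in dominant pituitaries and at 155, 142 and 83.9 in subordinate ones. The log2 difference was 0.60 ± 0.27 (SE), and 0.33 without subordinate pituitary 3. abca1b (LOC100699821), which exports cholesterol from cells, stood at 174, 186 and 175 against 229.8, 293 and 279.7, a difference of -0.58 ± 0.17 (SE). icmt, which methylates prenylated proteins, stood at 253, 264 and 185 against 315, 334 and 670.4, a difference of -0.84 ± 0.32 (SE) that was -0.49 without subordinate pituitary 3. pdss2, of the ubiquinone side chain, stood at 90.5, 84.6 and 84.6 against 106, 147 and 137. For each of the 4 the pituitary groups did not overlap, as the choice of the table favours, and in the brain the groups of each overlapped. The brain log2 difference of icmt was -0.37 ± 0.15 (SE), with an unadjusted p of 0.0417 and an adjusted p of 0.934 by limma. Those of hsd17b7, abca1b and pdss2 were 0.22 ± 0.51, -0.07 ± 0.20 and 0.05 ± 0.12 (SE). Whether the difference differs between the tissues was not tested.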

How the data were processed

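Whole brains and pituitaries of dominant and subordinate males were grouped by the status and tissue in the labels, with the replicate number of each title. Per the labels, the RNA came from miRNeasy columns and the libraries from a TruSeq v2 kit. The submitters' processing notes name what the authors ran, which was DESeq, DESeq2, HTSeq, STAR 2.201, FastQC 0.11.4 and Trim Galore. Build, annotation and strand setting are not stated, so reads of overlapping or near-identical genes may be shared.

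The authors' deposited signal values are normalised read counts. Dividing each brain column by the value of 1 read made 100% of its values whole (tolerance 0.01 reads), giving whole reads and size factors of 0.956 to 1.10. Per the file headers, the authors also deposited p-values and log2 fold changes of dominant over subordinate males. The 251 blank lines of the brain table were left out, and 0 value columns were unused. RefSeq (assembly O_niloticus_UMD_NMBU) matched 17128 of 17130 LOC identifiers and gave 5834 a symbol. Coordinates are not printed. The promoter motif search named in the design was not run.

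The fit was limma 3.58.1 (R 4.3.3) on log2(value + 1), eBayes with trend, on the 21743 genes averaging 10 or more normalised reads. P-values were two-sided and Benjamini-Hochberg adjusted over all of them, with a threshold of 0.05. With 3 samples a group, an exact permutation test would have a smallest p of 0.1. Low genes have their fold understated by the added 1. edgeR 4.0.16 and DESeq2 1.42.0 were run on the recovered reads as alternatives. Other alternatives were other pseudocounts (0.5 and 5), quantile and TMM rescaling, no filter or a minimum mean of 50, a replicate block, each library left out, and a posterior hox covariate. The limma step was tested on simulated data. Figures were drawn with matplotlib 3.10.9.

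The members, gene lists and alternatives were chosen with earlier results of these data known. The genes named are the 9 members, the tested genes of both synthesis lists and the SREBP control list (a few genes are not reported here), and up to 4 genes with non-overlapping groups of the other lists. Also named are the 8 named genes outside the lists nearest to the enzyme profile, and list genes in the pituitary table. slc25a1a, me1 and the untested rows were added after their values were seen.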

Additional observations from a re-analysis of the deposited data

How the results depend on the processing

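The median difference of the 7 enzymes kept its direction under every alternative run. It was 0.73 with the hox covariate, ran from 0.718 to 0.852 with 1 library left out, and moved by less than the spread between replicates under the other 9. Single enzyme values stayed above 0 throughout, from 0.26 to 1.32, which the choice of the enzymes by this contrast favours. Of 144 member values under alternatives, 138 moved by less than 1 SD between replicates, and the 6 that moved further did so with the hox covariate. The cause was not tested. A member's difference cannot change with no filter, a minimum mean of 50 or a replicate block. The part of these settings in the 138, and in the other 9 for the enzyme median, was therefore fixed in advance. The median of the other 88 pathway genes was 0.103 with that covariate and 0.0279 to 0.0709 with 1 library left out. Sterol synthesis genes outside the members that were higher numbered 14 to 17 with 1 library left out, a count added after seeing the data. Of the 17 genes, hsd17b7 passed the minimum mean in only 4 of those 6 fits.

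The count of other pathway genes called was 0 by limma and edgeR and 1 with DESeq2 (npc2). Over all genes limma called 6. That count was 1 with the replicate block, 0 with the hox covariate, 83 with DESeq2, 6 with edgeR, and 1 to 15 with 1 library left out. It was 2, 3 and 1 without dominant brains 1, 2 and 3, and 15, 3 and 3 without subordinate brains 1, 2 and 3. With that covariate 1314 genes had an unadjusted p under 0.05 by limma; edgeR and DESeq2 were not run with it. The labels do not say whether the number in the titles pairs the samples. Deviations of same-numbered libraries from their group means were correlated at 0.092, -0.030 and -0.021. For differently numbered libraries the correlations ran from -0.067 to 0.092, so these values do not settle it. Not every library was nearest to its own number. With each number present once in each status, a replicate block cannot change a status difference. The enzyme median of 0.83 under the block therefore says nothing about pairing. At 23733115 reads or more per library, genes under a mean of 10 normalised reads, here 8 of the 105 pathway rows, could not be compared.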

Other observations

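In some genes of the pathway lists, same-numbered libraries of both statuses stood together, and the pair given here was singled out after its values were seen. rnf139, a ubiquitin ligase of the endoplasmic reticulum, stood at 1138 normalised reads in dominant brain 1 and 868 in subordinate brain 1, and at 524 to 611 in the other 4 brains. me1, a malic enzyme that supplies NADPH for lipid synthesis, stood at 222 in dominant brain 2 and 179 in subordinate brain 2. In the other 4 brains me1 ran from 28.2 to 47.4.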
